A study of Mus musculus with 6 samples.

Results

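The genes described here are 10 kinases and regulators of the Hippo pathway, *Lats1*, *Lats2*, *Stk3*, *Stk4*, *Sav1*, *Mob1a*, *Nf2*, *Wwc1*, *Amotl2* and *Ptpn14*, chosen by name and not by their values, of the 26579 genes in the count table. All 10 were found by their Ensembl identifiers in GENCODE M21 (GRCm38) and all 10 were among the 15102 genes tested, those with at least 1 CPM (a gene's count scaled to a common library total) in at least 3 libraries. RNA-Seq counts came from dorsal neck skin of 3 female wild type mice and 3 female YAP2-5SA-∆C littermates, all at 33 days of age. The transgene expresses an activated YAP mutant in basal keratinocytes, so the whole-skin biopsies mix transgenic cells with other cell types that do not express it. The transgenic mice were sampled when their skin phenotype had just become visible. Each library is 1 mouse, and the strain background is not given in the sources used here. In such bulk samples, fewer cells of a type and less RNA per cell cannot be told apart.

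The Hippo pathway restrains organ growth by keeping YAP and TAZ out of the nucleus. The kinases MST2 and MST1, encoded by *Stk3* and *Stk4*, bind the scaffold SAV1 and phosphorylate the kinases LATS1 and LATS2 and their cofactor MOB1, and LATS in turn phosphorylates YAP, which is then held in the cytosol or degraded. NF2 (merlin) and WWC1 (KIBRA) bring LATS to the cell membrane, whereas AMOTL2 and PTPN14 bind YAP directly through short proline-rich motifs. YAP and TEAD factors are known to switch on *Lats2*, *Nf2* and *Amotl2* in several tissues, which closes a negative feedback loop. In the epidermis this pathway limits the growth of basal keratinocytes. The 5SA mutant lacks serines that LATS phosphorylates, so it escapes most of this control. The comparison asks whether the mRNA of the restraining machinery differs in skin that carries such a YAP.

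Because TEAD factors bind the hexamer GGAATG, the promoter windows of the members were searched for it and for its reverse complement CATTCC, and the matches are shown here with 12 bases on each side. The windows, from RefSeq on GRCm38.p6, run from 250 bases before to 50 bases after a transcript start. Windows were matched by symbol for 9 members, all but *Stk3*, and 5 of the 9 held a match, as did 16.6% of the 27025 genes with a window (14.7% of 32851 windows). The capitals mark the hexamer on the strand of the gene.
*Amotl2*, chr9:102717727-102717756, plus strand: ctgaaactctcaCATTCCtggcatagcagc
*Lats2*, chr14:57746102-57746131, minus strand: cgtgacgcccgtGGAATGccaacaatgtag
*Sav1*, chr12:69987091-69987120, minus strand: cggctttcccagCATTCCcagcggcgcggg
*Ptpn14*, chr1:189728110-189728139, plus strand: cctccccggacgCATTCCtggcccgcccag
*Mob1a*, chr6:83325818-83325847, plus strand: tggccagaatagCATTCCtttaggagaaga

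The match of *Amotl2* began 65 bases before the transcript start of its window. That start lies inside the gene as annotated in GENCODE M21, which begins further upstream, and 136 of the 250 bases before it are exonic in other forms. That of *Lats2* began at base 5 of the transcript. Those of *Sav1*, *Ptpn14* and *Mob1a* began 106, 146 and 209 bases before the start. For *Mob1a* the start also lies inside the annotated gene, and 143 of the 250 bases before it are exonic in *Mob1a* or its neighbour *Mthfd2*. The windows of *Nf2* held none. For the feedback genes *Lats2* and *Nf2*, the 250 bases before the most upstream start with a window are given in full, since they show the sequence beside a match and without one. Neither overlaps an exon in GENCODE M21. That of *Lats2* lies within an intron of longer annotated forms of the gene, and that of *Nf2* lies outside the gene. G and C made up 74% of the bases in *Lats2*, with 31 CpG dinucleotides, and 59.2% in *Nf2*, with 20. A match is a description of these letters and not a bound site.
*Lats2*, chr14:57746124-57746373, minus strand: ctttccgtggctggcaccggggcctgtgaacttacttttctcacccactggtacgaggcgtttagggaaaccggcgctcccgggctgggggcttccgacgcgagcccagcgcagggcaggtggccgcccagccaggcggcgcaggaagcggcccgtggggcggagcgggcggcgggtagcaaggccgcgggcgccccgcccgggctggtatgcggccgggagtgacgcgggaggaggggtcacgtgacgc
*Nf2*, chr11:4849545-4849794, minus strand: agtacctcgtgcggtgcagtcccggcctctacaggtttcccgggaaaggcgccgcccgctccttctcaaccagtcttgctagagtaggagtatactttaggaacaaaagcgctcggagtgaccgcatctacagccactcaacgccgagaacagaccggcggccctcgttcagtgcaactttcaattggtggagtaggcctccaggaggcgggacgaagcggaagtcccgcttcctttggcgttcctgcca

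Total counts on genes ranged from 11225705 to 19505036 per library, and wild type replicate 3 was the shallowest. *Yap1* had 142, 125 and 126 CPM in wild type and 136, 144 and 129.6 CPM in YAP2-5SA-∆C skin, and the log2 fold change was 0.06 (95% interval -0.11 to 0.23, FDR 0.635 in edgeR's quasi-likelihood test). How transgene-derived reads were assigned is not given in the sources used here, so this value is no check of the labels. The library most distant from the rest was YAP2-5SA-∆C replicate 2, at 2.24 on dimension 1 of the MDS plot against 0.30 and 0.26 for the other YAP2-5SA-∆C libraries.

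No member differed between the genotypes past the threshold. The quasi-likelihood fit of edgeR called 0 of the 10 at an FDR threshold of 0.05, against 1.91% of all tested genes (1.44% called higher and 0.464% called lower in YAP2-5SA-∆C skin). The log2 fold changes (YAP2-5SA-∆C over wild type) lay between -0.21 (*Stk3*) and 0.27 (*Amotl2*), with a median of -0.03 and a median size of 0.07, against -0.01 and 0.16 over all tested genes. With an unadjusted p-value under 0.05 there were 2 members, *Stk3* and *Amotl2*, where 26.3% of all genes were under it. The likelihood-ratio test of edgeR, voom and DESeq2 also called 0 members, with 0, 2 and 1 under an unadjusted p-value of 0.05, while calling 10.4%, 1.65% and 10.5% of all genes. The quasi-likelihood test called 0 members with RLE factors, upper-quartile factors, no filter and a minimum of 10 counts in every library, where it called 2.36%, 2.75%, 1.87% and 2.07% of all genes. Omitting 1 mouse at a time again gave 0 member calls in 6 of 6 refits, with 1 or 2 under an unadjusted p-value of 0.05. Among all genes the refits called 0.949% when wild type replicate 1 was omitted, 0.577% for YAP2-5SA-∆C replicate 1 and 5.46% for YAP2-5SA-∆C replicate 2, but 0 for wild type replicates 2 and 3 and for YAP2-5SA-∆C replicate 3.

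The counts were deep enough to bound the differences. A member had between 371 and 2861 counts in a library, which sets a counting error of 1.87% to 5.19% for 1 value. The 95% interval of the fold change lay within 1.5-fold either way for all 10 members and within 1.2-fold for 6, *Lats1*, *Lats2*, *Stk4*, *Sav1*, *Mob1a* and *Nf2*. The widest bounds were 1.39-fold higher for *Amotl2* and 0.782-fold for *Stk3*. These intervals are for 1 gene at a time and were not adjusted for the number of genes. Where an interval held 0, as for 8 of the 10, the data do not show that the level was the same, and only limit how far it could differ.

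**Figure D1:**
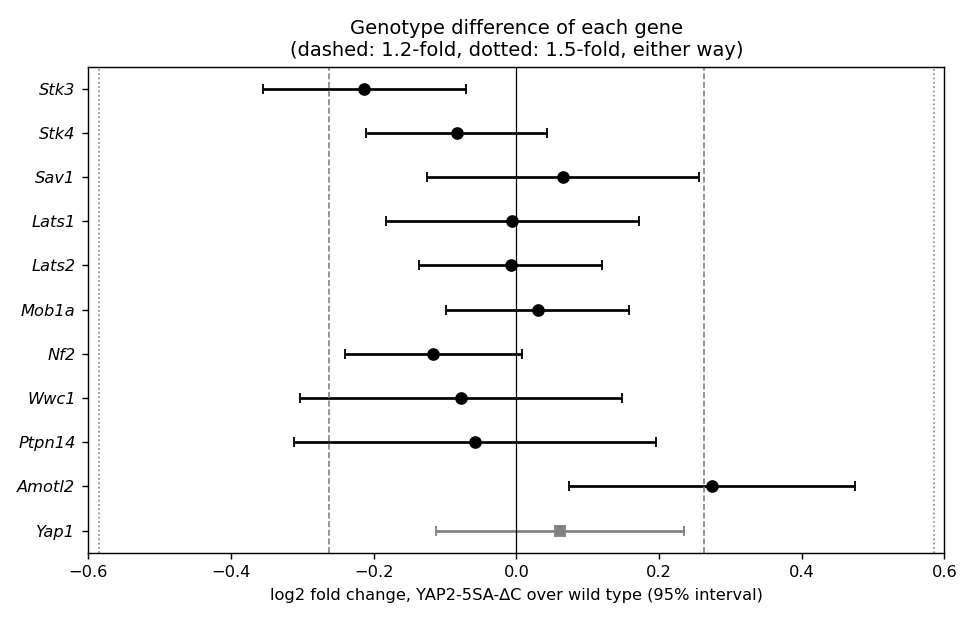
Log2 fold change of each member between YAP2-5SA-∆C and wild type skin, with its 95% interval from edgeR's quasi-likelihood fit (3 mice per genotype); *Yap1* is the grey square. All 10 intervals lie inside the dotted lines (1.5-fold), and those of *Stk3* and *Amotl2* do not cross 0.

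*Amotl2*, *Lats2* and *Nf2* are the members known as feedback targets of YAP, and they had differences of unlike sign and size. *Amotl2* (ENSMUSG00000032531, chromosome 9 from 102716672 to 102733418) encodes an angiomotin that tethers YAP at junctions and actin. It had 102, 92.8 and 97.2 CPM in wild type replicates 1, 2 and 3 and 104, 123 and 126 CPM in YAP2-5SA-∆C replicates 1, 2 and 3. The genotypes did not overlap, but YAP2-5SA-∆C replicate 1 lay close to the highest wild type value. The log2 fold change was 0.27 (standard error 0.08, 95% interval 0.07 to 0.48), and edgeR's quasi-likelihood test gave a p-value of 0.0143 (FDR 0.105). Leaving out each library in turn gave log2 fold changes from 0.23 to 0.38 and FDRs from 0.0677 to 0.278, and the lowest FDR was reached without YAP2-5SA-∆C replicate 1.

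*Lats2* (ENSMUSG00000021959, chromosome 14 from 57689662 to 57758388) encodes the LATS kinase most often described as YAP-induced. It had 64.8, 62.0 and 63.0 CPM in wild type and 61.0, 63.7 and 64.0 CPM in YAP2-5SA-∆C skin. The values of the genotypes were interleaved, and the log2 fold change was -0.01 (standard error 0.05, 95% interval -0.14 to 0.12, edgeR FDR 0.937). The upper end of the interval was 1.09-fold. The sign of this value, like that of *Lats1*, turned positive with RLE or upper-quartile factors. In the annotation, 2955 of the 6971 exonic bases of *Lats2* are shared with the gene Gm49361 on the same strand. The count table lists no row for Gm49361, but it holds only genes with at least 1 read, so whether reads in the shared bases were set aside as ambiguous is not known, and the count of *Lats2* is uncertain to that extent.

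*Nf2* (ENSMUSG00000009073, chromosome 11 from 4765845 to 4849536) encodes merlin. It had 91.3, 91.4 and 93.2 CPM in wild type and 83.0, 83.6 and 87.9 CPM in YAP2-5SA-∆C skin. All 3 YAP2-5SA-∆C values were below all 3 wild type values. The log2 fold change was -0.12 (standard error 0.05, 95% interval -0.24 to 0.01), and the same edgeR test gave a p-value of 0.0628 (FDR 0.213). Without YAP2-5SA-∆C replicate 2 it was -0.09 with an FDR of 0.482. Of the feedback members, *Amotl2* was thus on the higher side, *Nf2* on the lower side, and *Lats2* in between, and no FDR was below 0.05.

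**Figure D2:**
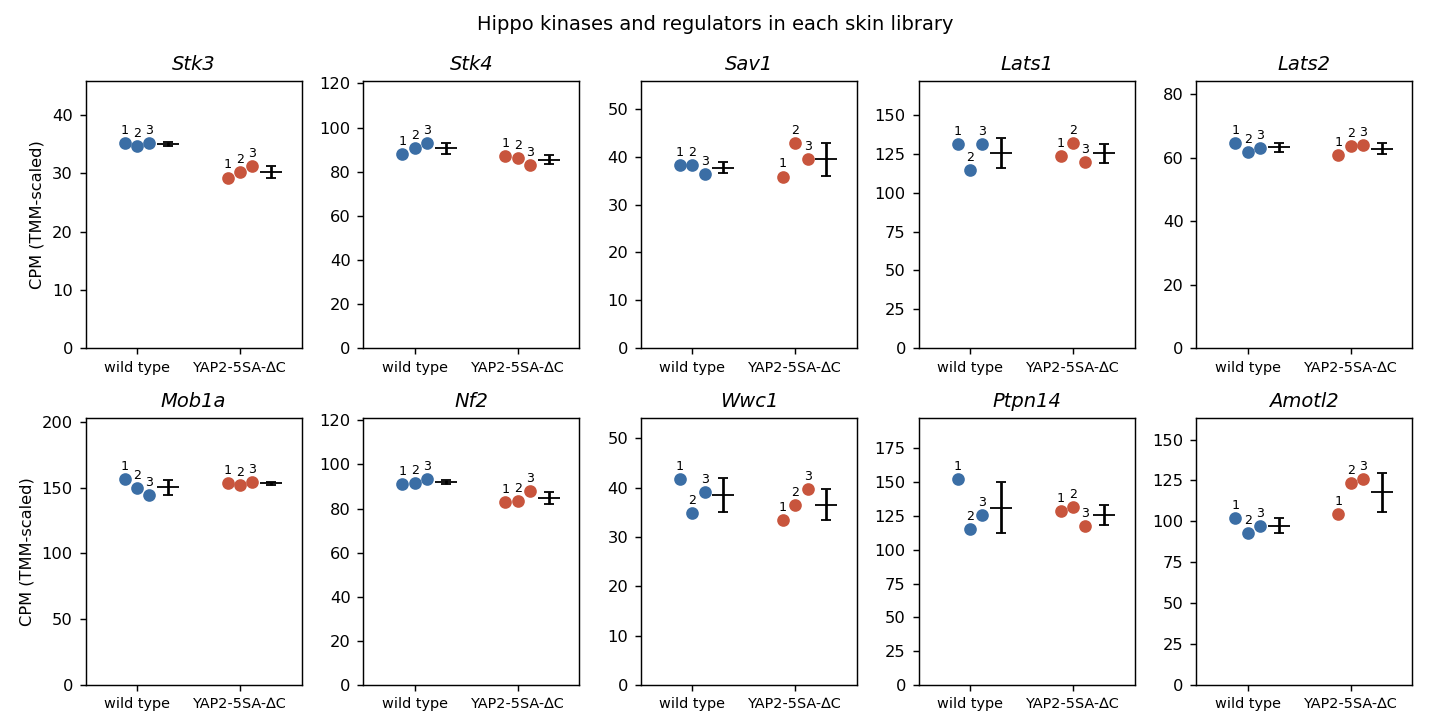
TMM-scaled CPM of the 10 members in each library, with the replicate number above each point and the mean and SD of 3 mice beside them; every axis starts at 0. *Stk3*, *Stk4* and *Nf2* are lower and *Amotl2* is higher in all 3 YAP2-5SA-∆C mice than in all 3 wild type mice, and the other 6 members overlap.

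The MST kinases and their scaffold stand at the top of the kinase cascade. *Stk3* (ENSMUSG00000022329, chromosome 15 from 34875496 to 35178921) encodes MST2. It had 35.3, 34.7 and 35.3 CPM in wild type and 29.3, 30.2 and 31.3 CPM in YAP2-5SA-∆C skin, so that the genotypes were apart by more than the range within each. Its log2 fold change of -0.21 (standard error 0.06, 95% interval -0.36 to -0.07) had the lowest p-value of the members, 0.00943 (edgeR quasi-likelihood FDR 0.0868). Among the other tools the FDR was 0.0869 in voom, 0.234 in DESeq2 and 0.455 in the likelihood-ratio test. The wild type values of *Stk3* differed by less than their counting error, with an SD of 0.983% of the mean where counting alone gives 4.34%.

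*Stk4* (ENSMUSG00000018209, chromosome 2 from 164070322 to 164155524), which encodes MST1, had 87.9, 90.7 and 93.1 CPM in wild type and 86.9, 86.4 and 83.1 CPM in YAP2-5SA-∆C skin. The groups did not overlap, by a margin of less than 1 CPM, and the log2 fold change was -0.08 (95% interval -0.21 to 0.04, edgeR FDR 0.362). *Sav1* (ENSMUSG00000021067, chromosome 12 from 69965012 to 69987002) encodes the scaffold that joins MST to LATS. It had 38.4, 38.3 and 36.3 CPM in wild type and 35.9, 42.9 and 39.5 CPM in YAP2-5SA-∆C skin, with the lowest and the highest value both among the YAP2-5SA-∆C libraries. Its log2 fold change was 0.07 (95% interval -0.12 to 0.26, edgeR FDR 0.640), but omitting YAP2-5SA-∆C replicate 2 gave 0.02, and omitting replicate 1 of that genotype gave 0.15. On the opposite strand, *Atl1* overlaps 1336 of the 5265 exonic bases of *Sav1*, and the strand setting of the counting is not stated, so reads of *Sav1* in the shared bases may have been left uncounted. *Atl1* itself had 26 to 58 counts in a library.

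Below MST stand the LATS kinases and their cofactor MOB1. *Lats1* (ENSMUSG00000040021, chromosome 10 from 7681214 to 7716460) had 131, 115 and 132 CPM in wild type and 124, 132 and 120.0 CPM in YAP2-5SA-∆C skin. The genotype means, 126 ± 9.65 and 125 ± 6.28 CPM (SD, n = 3 each), differed by far less than the spread between mice, and the log2 fold change was -0.01 (95% interval -0.18 to 0.17, edgeR FDR 0.965). *Mob1a* (ENSMUSG00000043131, chromosome 6 from 83326016 to 83343776) encodes the cofactor that LATS needs for full activity. It had 156, 149.7 and 144 CPM in wild type and 153, 152 and 154 CPM in YAP2-5SA-∆C skin. All YAP2-5SA-∆C values lay inside the wild type range, with a log2 fold change of 0.03 (95% interval -0.10 to 0.16, edgeR FDR 0.758).

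The other regulators varied more between mice of a genotype than between genotypes. *Wwc1* (ENSMUSG00000018849, chromosome 11 from 35838400 to 35980527), which encodes KIBRA, had 41.7, 34.8 and 39.2 CPM in wild type and 33.4, 36.5 and 39.7 CPM in YAP2-5SA-∆C skin, and the log2 fold change was -0.08 (95% interval -0.30 to 0.15, edgeR FDR 0.642). *Ptpn14* (ENSMUSG00000026604, chromosome 1 from 189728268 to 189876695) encodes a phosphatase that binds YAP and KIBRA. It had 152, 116 and 125 CPM in wild type and 128, 132 and 118 CPM in YAP2-5SA-∆C skin. Wild type replicate 1 was the highest library for both genes. The log2 fold change of *Ptpn14* was -0.06 (95% interval -0.31 to 0.20, edgeR FDR 0.763), and it was 0.07 without wild type replicate 1 (FDR 0.610).

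Seen as a group, the members varied less between mice of the same genotype than the median gene. The median coefficient of variation (SD over mean of 3 mice) of the members was 3.52% for wild type and 4.12% for YAP2-5SA-∆C skin, where the median over all tested genes was 8.09% and 9.29%. The members are well counted, and low counts raise this value among all genes, so the comparison is a description. Of the 20 combinations of a member and a genotype, 8 varied by less than their mean counting error, among them *Stk3* and *Lats2* in both genotypes. *Ptpn14* varied most, by 14.4% in wild type, and *Mob1a* varied least, by 0.697% in YAP2-5SA-∆C skin. The CPM of the genotypes did not overlap for 4 of the 10 members, 3 lower and 1 higher in YAP2-5SA-∆C skin, where 33.8% of all tested genes did not overlap (18.2% lower and 15.5% higher). A share of 4 in 10 is near that background.

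Levels were compared between members after division by exonic length, as RPKM (CPM per kb of all annotated exons of a gene). *Mob1a* was the most abundant, with 31.6 ± 0.879 RPKM (SD over all 6 libraries), followed by *Lats1* (17.2), *Amotl2* (17.1), *Stk4* (15.0), *Nf2* (13.0), *Ptpn14* (9.58), *Lats2* (9.05), *Wwc1* (7.57), *Sav1* (7.32) and *Stk3* (5.35). The span from *Mob1a* to *Stk3* was 5.92-fold. Neighbours in this order that did not separate were *Lats1* and *Amotl2*, *Amotl2* and *Stk4*, *Ptpn14* and *Lats2*, and *Wwc1* and *Sav1*, whose ranges over the 6 libraries overlapped. *Lats1* exceeded *Amotl2* in 4 of 6 libraries and *Wwc1* exceeded *Sav1* in 3 of 6. The remaining 5 neighbouring pairs kept their order in 6 of 6 libraries without overlap. The order pools both genotypes and turned with genotype in places. By genotype means, *Lats1* (17.2 RPKM) stood above *Amotl2* (15.5) in wild type, where *Amotl2* and *Stk4* (15.5) were level, but below *Amotl2* (18.7) in YAP2-5SA-∆C skin. *Wwc1* (7.77) stood above *Sav1* (7.16) in wild type and below it in YAP2-5SA-∆C skin (7.37 against 7.49). The order rests on the union of exons, which overstates the length of a gene whose long forms are little used in skin. The place of *Lats2* is uncertain, since 2955 of its 6971 exonic bases are shared with Gm49361 and reads there may be missing. That of *Sav1* is uncertain in the same way, with 1336 of 5265 bases shared with *Atl1*.

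**Figure D3:**
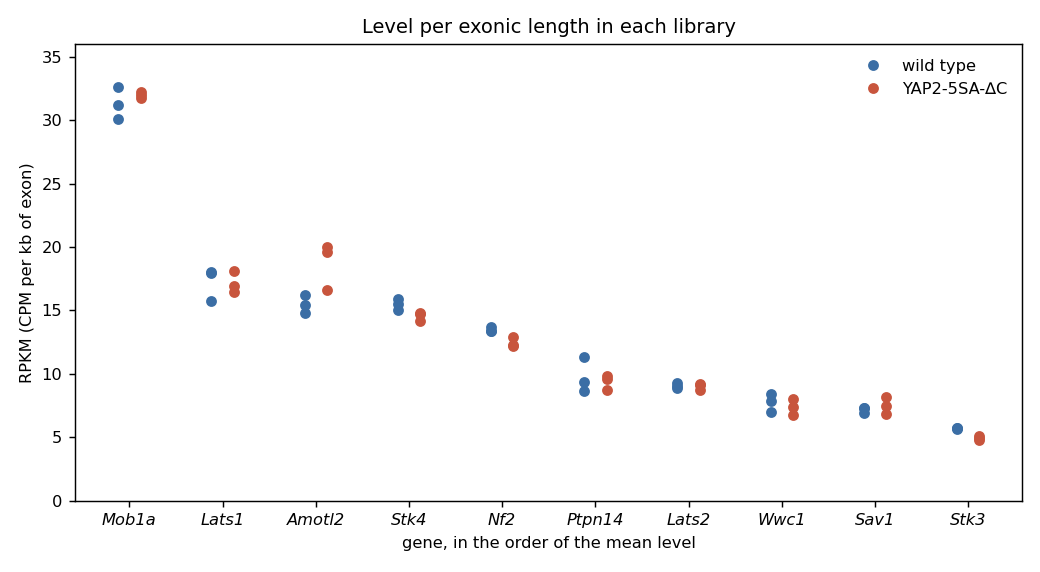
RPKM of each member in the 6 libraries (CPM per kb of exon, axis from 0), ordered by the mean over all libraries. *Mob1a* stands above the rest near 31.6 RPKM, and *Stk3* is lowest near 5.35 RPKM.

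Each step of the cascade is shared by paralogs, and their balance was read from the ratio of counts within a library, which does not depend on how libraries are scaled. The ratio of *Lats2* to *Lats1* counts was 0.494, 0.540 and 0.478 in wild type and 0.493, 0.481 and 0.534 in YAP2-5SA-∆C skin. The difference between the mean log2 ratios was -0.0038 (two-sided exact permutation test, p = 0.9, where 0.1 is the smallest p that 3 mice against 3 can give). The ratio of *Stk4* to *Stk3* was 2.49, 2.61 and 2.64 in wild type and 2.97, 2.86 and 2.66 in YAP2-5SA-∆C skin. It was higher in all 3 YAP2-5SA-∆C mice, with a difference of 0.13 on the log2 scale (exact permutation test, p = 0.1), although YAP2-5SA-∆C replicate 3 lay close to wild type replicate 3. The ratio of *Mob1b* to *Mob1a* was 0.606, 0.613 and 0.616 in wild type and 0.581, 0.629 and 0.559 in YAP2-5SA-∆C skin, a difference of -0.05 (exact permutation test, p = 0.4). With 3 ratios tested, the Benjamini-Hochberg adjusted values were 0.9, 0.3 and 0.6 in the order given. The level of the *Lats2* to *Lats1* ratio is uncertain, since reads of *Lats2* in the bases shared with Gm49361 may be missing.

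**Figure D4:**
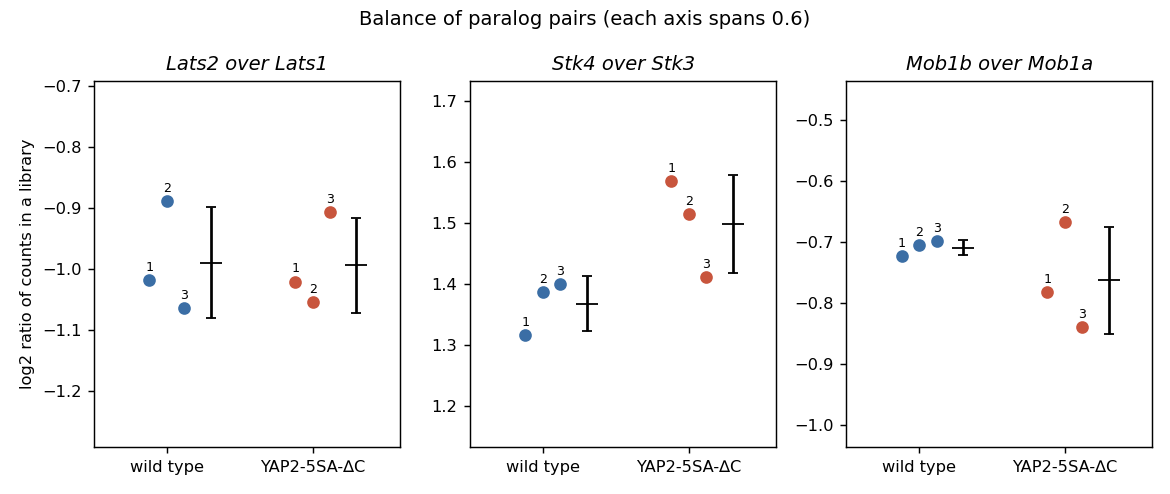
Log2 ratio of the counts of paralogs within each library, with replicate numbers and the mean and SD of 3 mice; each panel spans 0.6 log2 units around its own mean and does not start at 0. The *Stk4* to *Stk3* ratio is higher in all 3 YAP2-5SA-∆C mice, and the other ratios overlap.

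Summed over paralogs, per exonic length, the LATS kinases gave 26.3 ± 1.48 RPKM in wild type and 26.2 ± 0.920 RPKM in the transgenic skin (SD, n = 3 each). *Lats1* supplied between 63.9% and 66.6% of this sum in every library. If reads of *Lats2* in the bases shared with Gm49361 were left uncounted, the sum is too low and this share too high. The MST kinases gave 20.8, 21.2 and 21.7 RPKM in wild type and 19.6, 19.7 and 19.3 RPKM in YAP2-5SA-∆C skin, and *Stk4* made up 72.2% to 75.6%. The sum over *Mob1a* and *Mob1b* was 37.4 ± 1.44 RPKM in wild type and 38.0 ± 0.109 RPKM in YAP2-5SA-∆C skin. Among the angiomotins, *Amotl1* was the main form, with 53.2% to 60.9% of the sum. *Amotl2* made up 35.2%, 31.3% and 33.1% of it in wild type and 35.4%, 38.1% and 43.3% in YAP2-5SA-∆C skin. *Amot* gave only 3.49% to 8.92% and varied widely, from 15.1 to 35.3 CPM among the wild type mice.

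Around the members, 99 further Hippo genes were listed by role, and 94 of them were tested. At the same threshold edgeR called 1 of them, against 1.91% of all genes, and 25 of the 94 had an unadjusted p-value under 0.05, where 26.3% of all genes did. Their median log2 fold change was -0.01. The gene that passed was *Csnk1e*, which encodes casein kinase 1 epsilon, a kinase that marks YAP for degradation after LATS has acted. *Csnk1e* (ENSMUSG00000022433, chromosome 15 from 79417856 to 79455566) had 114, 130.3 and 136 CPM in wild type and 89.0, 79.8 and 86.6 CPM in YAP2-5SA-∆C skin. It fell by 0.57 on the log2 scale (95% interval -0.77 to -0.38, FDR 0.0395 in edgeR's quasi-likelihood test), a fold of 0.672. The FDR was 0.0243 without YAP2-5SA-∆C replicate 2, where 5.46% of all genes were called. It rose above 0.05, to at most 0.178, without wild type replicate 2 or 3 or YAP2-5SA-∆C replicate 1 or 3. The refit without YAP2-5SA-∆C replicate 1 called 0.577% of all genes. The others of these called 0 of all genes, so the loss of the call there is not particular to *Csnk1e*.

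The paralogs of the members did not pass the test. *Mob1b* had a log2 fold change of -0.02, *Amotl1* of -0.05, *Ptpn21* of 0.14, *Wwc2* of 0.20 and *Amot* of -0.49 (95% interval -1.23 to 0.25), with FDRs from 0.343 to 0.847 in edgeR. Omitting 1 library moved *Amot* from -0.17 (wild type replicate 2) to -0.76 (wild type replicate 1) and *Wwc2* from 0.09 to 0.32 (the same libraries). *Amot* had 15.1, 35.3 and 25.7 CPM in wild type and 22.5, 18.1 and 13.5 CPM in YAP2-5SA-∆C skin. The skeletal muscle markers, summed, had 1359, 6635 and 5456 CPM and 3372, 2148 and 1305 CPM in the same libraries, the lowest and the highest wild type library being the same for both, and their part in the *Amot* values was not tested. *Stk38l*, which encodes an NDR kinase related to LATS, had the lowest p-value of the paralogs and NDR kinases. It had 20.8, 16.2 and 17.4 CPM in wild type and 23.6, 29.4 and 28.8 CPM in YAP2-5SA-∆C skin, and the log2 fold change was 0.59 (95% interval 0.29 to 0.89, edgeR FDR 0.0596). It passed 0.05 in the likelihood-ratio test (FDR 0.0108) and in DESeq2 (FDR 0.00318).

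In the other lists 0 genes passed the quasi-likelihood test. The gene with the lowest p-value was *Patj* among 13 FERM and apical polarity genes (log2 fold change -0.32, edgeR FDR 0.0618), *Ctnnb1*, which encodes β-catenin, among 9 basolateral polarity and adhesion genes (-0.39, FDR 0.0635), and *Fat1* among 6 atypical cadherin genes (-0.29, FDR 0.0620). Among 17 kinases that act on LATS or MST it was *Mark1* (-0.53, edgeR FDR 0.0775), among 6 RASSF genes *Rassf6* (-0.65, FDR 0.121), among 14 genes of the STRIPAK phosphatase complex *Ppp2cb* (-0.34, FDR 0.0596), and among 11 genes of LATS inhibitors and E3 ligases *Lpp* (-0.21, FDR 0.125). Of these 7 genes, DESeq2 called *Patj*, *Ctnnb1*, *Fat1*, *Mark1* and *Ppp2cb*, and the likelihood-ratio test called *Mark1* and *Rassf6*. Without YAP2-5SA-∆C replicate 2 the log2 fold change was -0.36 for *Mark1* (edgeR FDR 0.0549) and -0.41 for *Rassf6* (FDR 0.101). The genes under an unadjusted p-value of 0.05 numbered 4 of 13 in the FERM and apical list and 3 of 9, 2 of 6, 6 of 17, 2 of 6, 3 of 14 and 1 of 11 in the lists that follow in this order, beside the 26.3% of all genes. In the list of YAP turnover and binding proteins that holds *Csnk1e* they numbered 3 of 11.

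**Figure D5:**
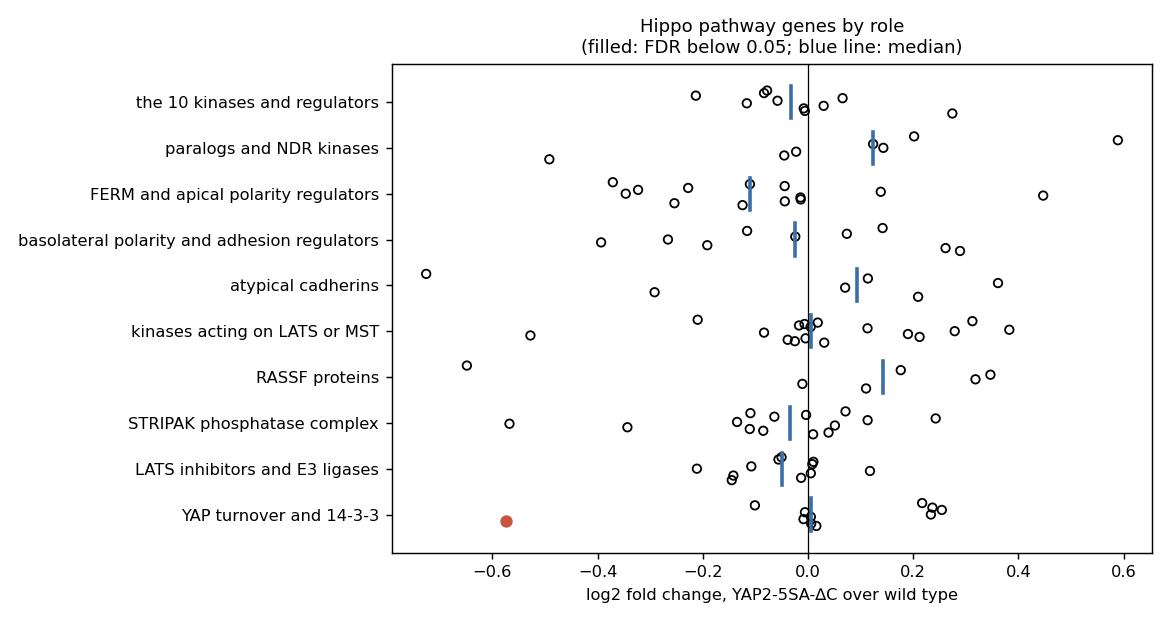
Log2 fold change (YAP2-5SA-∆C over wild type) of the 10 members and of the tested genes of each Hippo list; the filled point, *Csnk1e* at -0.57, is the gene with an FDR below 0.05, and blue lines are medians. The members lie between -0.21 and 0.27, and the widest values belong to genes of other lists.

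Of the marker genes of skin cell types, 5 passed edgeR's quasi-likelihood test, in 3 of 11 lists, beside the 1.91% of all genes called (1.44% higher and 0.464% lower). The summed CPM of 7 basal keratinocyte markers was 3593 to 4358 in wild type and 5903 to 7540 in YAP2-5SA-∆C skin, and 1 of the 7, *Krt14*, passed the test. That of 7 suprabasal markers was 6436 to 7951 against 8100 to 14636 (0 of 7 passed). Hair shaft and inner root sheath markers had 13584 to 16962 CPM in wild type and 1482 to 9094 CPM in YAP2-5SA-∆C skin (0 of 11 passed), with the lowest value in YAP2-5SA-∆C replicate 2. Without that library 10 of the 11 hair markers passed, all lower, as did 5 of 5 melanocyte markers, 2 of 7 basal and 2 of 7 suprabasal markers, where 5.46% of all genes were called. The calls in the full set were lost in other refits, that of *Krt14* in the 3 refits that called 0 genes in all, and both melanocyte calls in every refit but the 1 without YAP2-5SA-∆C replicate 2. The macrophage calls numbered 1 without YAP2-5SA-∆C replicate 1, and 0 when any wild type library or YAP2-5SA-∆C replicate 3 was omitted. Melanocyte markers had 408 to 478 against 151 to 261 CPM (2 of 5 passed, both lower), and macrophage markers 373 to 453 against 535 to 589 CPM (2 of 7 passed, both higher). Fibroblast markers had 9642 to 12978 against 12438 to 16157 CPM, endothelial markers 104.5 to 124 against 127 to 149.8 CPM, and smooth muscle markers 320.5 to 398 against 248 to 345 CPM. Skeletal muscle markers (1359 to 6635 against 1305 to 3372 CPM), adipocyte markers (1634 to 2494 against 1547 to 2211 CPM) and T cell markers (4.81 to 6.71 against 6.23 to 9.00 CPM) overlapped, and the quasi-likelihood test called 0 genes of these last 6 lists. Other tools called more markers. The likelihood-ratio test, which called 10.4% of all genes, called 10 of 11 hair, 5 of 5 melanocyte, 3 of 7 basal, 2 of 7 suprabasal, 2 of 7 macrophage, 1 of 3 T cell and 1 of 5 smooth muscle markers. DESeq2, which called 10.5%, called 0 of 11 hair, 5 of 5 melanocyte, 5 of 7 basal, 3 of 7 suprabasal, 4 of 7 macrophage, 2 of 7 fibroblast and 3 of 5 smooth muscle markers (1 higher and 2 lower). None of the markers in the table was at 0 in all libraries, those of keratinocytes, the labelled skin, included. The summed levels of the basal, suprabasal, macrophage and endothelial markers did not overlap between genotypes, all higher in YAP2-5SA-∆C skin. Nor did those of the hair and melanocyte markers, both lower. The margin was small for suprabasal (7951 against 8100 CPM) and endothelial markers (124 against 127 CPM). Taken singly, 4 of 7 basal, 3 of 7 suprabasal, 7 of 7 macrophage and 3 of 6 endothelial markers did not overlap. The same held for 11 of 11 hair and 5 of 5 melanocyte markers, beside 33.8% of all tested genes. The part of all these markers in the members' values was not tested.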

How the data were processed

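RNA-Seq was performed on dorsal neck skin of 3 wild type mice and 3 YAP2-5SA-∆C littermates. Reads were aligned by the authors with Tophat2 (whose version differs between the sources) and Bowtie2 (v 2.1.0) to GRCm38, and they deposited raw counts per Ensembl gene from HTSeq-count. The library kit was stranded, and counting used a GRCm38 annotation, but its release and whether strand was used are not given in the sources used here. Ambiguous reads of overlapping genes may therefore be missing from a count.

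Genes reaching 1 CPM in 3 or more libraries were kept, scaled by TMM and tested with edgeR's quasi-likelihood test (v 4.0.16, R v 4.3.3), with genotype as the only term, and p-values were adjusted over all 15102 genes by Benjamini-Hochberg (FDR threshold 0.05). Standard errors and intervals came from the same fit. Alternatives were other size factors and filters, edgeR's likelihood-ratio test, voom (limma v 3.58.1), DESeq2 (v 1.42.0), a fit blocked on replicate number, and refits omitting 1 library. The code was tested on simulated data. RPKM used the exon union of GENCODE M21. Total counts ranged from 11225705 to 19505036, and counting error covers sampling of reads only. All 10 members, *Yap1*, the paralogs of the members, and from each other list the genes past the threshold, or else that with the lowest p-value, were named. The members and lists were chosen with earlier results of these data known.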

Additional observations from a re-analysis of the deposited data

How the results depend on the processing

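The count of members past the threshold stayed at 0 under all 14 alternatives. Over all genes, 288 calls became 497 with no filter on low counts, 1568 in the likelihood-ratio test and 1590 in DESeq2, and ranged from 0 to 816 when 1 library was left out. Of the calls, 218 were higher in YAP2-5SA-∆C skin, against 833 of 1568 in the likelihood-ratio test, 959 of 1590 in DESeq2 and 407 of 816 without YAP2-5SA-∆C replicate 2. The 1 call in the wider Hippo lists became 6 in the likelihood-ratio test and 11 in DESeq2, and ranged from 0 to 2 without 1 library.

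Same-numbered libraries did not deviate together (correlations of -0.33, -0.23 and -0.05). With so few libraries per genotype, these values cannot decide whether the replicate numbers pair the mice. With a replicate block, 0 genes in all and 0 in the wider lists were called (2949 and 18 at an unadjusted p-value under 0.05), and *Csnk1e* had an FDR of 0.164.

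Log2 fold changes near 0 changed sign. That of *Lats1* was 0.0052 with RLE factors, 0.0159 with upper-quartile factors, 0.0071 with no filter and 0.0064 in DESeq2, and that of *Lats2* was 0.0031, 0.0138, 0.0041 and 0.0027, while the median over all genes moved from -0.0132 to -0.0023, 0.0087, 0.0059 and -0.0024. Without 1 library, they ranged from -0.0686 to 0.0368 for *Lats1*, -0.0227 to 0.0341 for *Lats2*, -0.1469 to 0.0031 for *Wwc1*, -0.1409 to 0.0688 for *Ptpn14*, -0.0492 to 0.0126 for *Mob1b*, -0.0934 to 0.0265 for *Amotl1* and -0.0207 to 0.3020 for *Ptpn21*, and the log2 ratio of *Lats2* to *Lats1* differed by -0.0477 to 0.0470. The cause of these leave-one-out changes was not tested.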
